A study of Mus musculus with 4 samples.

Results

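Metastases were compared with the primary tumour in mice whose tumours had received sham radiation. The comparison rests on 2 of the 4 arrays of the study, 1 of primary tumour and 1 of metastases, chosen by their labels alone. MicroRNAs were measured in tumours grown from 4T1 cells, a transplantable mammary carcinoma line of the mouse, injected into the mammary gland of 20 female Balb/s mice at 50000 cells each. At a tumour volume of 1 cm3 the primary tumours of 10 mice received 10 Gy and the others sham radiation, the primary tumour was removed by surgery, and metastases grew until the end point. The primary tumours and the metastases were therefore collected at different times, and time and site cannot be told apart. Every group carries the same 4T1 graft in the same host strain. The labels used here do not give the organ of the metastases, the age of the mice, or whether 1 mouse or several supplied the RNA of an array.

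With 1 array on each side there is no replicate and no test, and the number of arrays limits the precision. Each chip carried 5 spots for each of 700 mouse microRNA probes. Levels are given in intensity units as the mean of the 5 spots minus the median of that array's empty spots, ± the SD of the 5 spots. Differences are log2 values of normalized levels, metastases minus primary tumour, ± the SD over the 5 pairs of spots (1 on this scale is 2-fold). These errors cover the scatter of spots inside the 2 chips and nothing between animals or chips. The 2 sham arrays had the lowest background of the 4, with median empty spots of 171 and 177 units (primary tumour and metastases) against 417 and 252 on the primary 10 Gy and metastases 10 Gy arrays. Detection of a probe required 3 or more spots brighter than the 95th percentile of the empty spots, a limit that lay 20.7 units above their median on the primary tumour array and 18.1 on the metastases array.

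MicroRNAs are short RNAs of about the length of the probes used here, cut from hairpin precursors. They guide Argonaute proteins to messenger RNAs and lower their translation or stability, mostly through pairing of the seed, bases 2 to 8 from the 5′ end. MicroRNAs that share a seed form a family, and many are marks of a cell type: the miR-200 family of epithelium, miR-143 and miR-145 of smooth muscle and fibroblasts, miR-126 of endothelium, miR-451 of red cells, miR-150 of mature lymphocytes, and miR-1, miR-133 and miR-206 of muscle. In breast carcinoma the miR-200 family is known for holding down ZEB1 and ZEB2, repressors of E-cadherin, and miR-21 for its high level in tumours.

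Most sequences below belong to families with several members higher in metastases, shown because members with one seed share the capitals, bases 2 to 8. Not every such family is shown. All but miR-141 passed 2-fold. The first group holds the miR-200 family with its 2 seeds, the second the miR-30 family and the third the miR-29 family, and the last sequences belong to single microRNAs with large differences. They are the target sequences of the deposited scanner tables, written 5′ to 3′.
miR-200c: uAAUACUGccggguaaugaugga
miR-200b: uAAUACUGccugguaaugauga
miR-429: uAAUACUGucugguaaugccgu
miR-200a: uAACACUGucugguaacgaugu
miR-141: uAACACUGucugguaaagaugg
miR-30a: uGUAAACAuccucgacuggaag
miR-30b: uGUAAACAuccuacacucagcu
miR-30c: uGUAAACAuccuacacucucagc
miR-30d: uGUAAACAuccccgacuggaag
miR-30e: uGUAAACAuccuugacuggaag
miR-29a: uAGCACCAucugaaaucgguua
miR-29b: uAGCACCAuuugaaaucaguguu
miR-29c: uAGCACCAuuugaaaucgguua
miR-195: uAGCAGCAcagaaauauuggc
miR-150: uCUCCCAAcccuuguaccagug
miR-126-3p: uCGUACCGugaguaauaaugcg
Where the target equals a mature sequence of RefSeq (GRCm38.p6), that match gives the locus. The miR-200 family lies in 2 clusters: Mir200b at chr4:156055685-156055706 with Mir200a and Mir429 on the same strand (−), and Mir200c at chr6:124718324-124718346 (−) with Mir141. Mir126a lies at chr2:26591402-26591423 (+), inside the span of Egfl7. The gene table gives spans only, so exon and intron were not told apart.

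A second set of targets is shown because it holds a stretch found in 13 of the 50 probes that were lower in metastases. The capitals mark every GUGUG in the target.
miR-206: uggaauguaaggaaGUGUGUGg
miR-466j: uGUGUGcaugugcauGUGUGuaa
miR-466h: uGUGUGcaugugcuuGUGUGua
miR-672: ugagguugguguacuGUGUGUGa
miR-468: uaugacugaugugcGUGUGucug
miR-574-5p: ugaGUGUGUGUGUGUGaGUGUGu
miR-1187: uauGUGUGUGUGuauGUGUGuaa
let-7b: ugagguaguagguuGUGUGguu
miR-669a: aguuGUGUGUGcauguucaugu
miR-669o: uaguuGUGUGUGcauguuuaugu
The last 3 hold the same letters and did not differ by 2-fold. Mir206 lies at chr1:20679055-20679076 (+) inside the span of Lincmd1, Mir672 at chrX:104116228-104116250 (−) inside the span of Nexmif, and Mir574 at chr5:64970328-64970350 (+) inside the spans of Fam114a1 and Tlr6.

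At the settings used, more probes were detected in the metastases than in the primary tumour, and about as many were higher as lower. Of the 700 probes, 337 were detected on the primary tumour array and 459 on the metastases array, 323 of them on both, 136 only in metastases and 14 only in the primary tumour. With the highest empty spot as the limit the order turned, to 290 and 206. At least 2-fold higher in metastases were 57 of the 473 probes detected on at least 1 array (12.1%), and 50 were at least 2-fold lower (10.6%). Quantile normalization sets this balance in part: without normalization 88 were higher and 52 lower, and of the 299 probes in the authors' value table the counts were 98 and 62. On all of these probes the 5 normalized spots of one array lay apart from the 5 of the other, but so did the spots of 48.6% of all probes tested. The median log2 difference over the tested probes was 0.06, and the median spot error was 0.16. The largest differences ran in opposite directions: 7 probes were higher by 8-fold or more, and 14 lower. All 57 higher and all 50 lower probes kept their direction without normalization and under 4 other scalings, and 45 and 46 of them stayed past 2-fold under each of these.

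**Figure D1:**
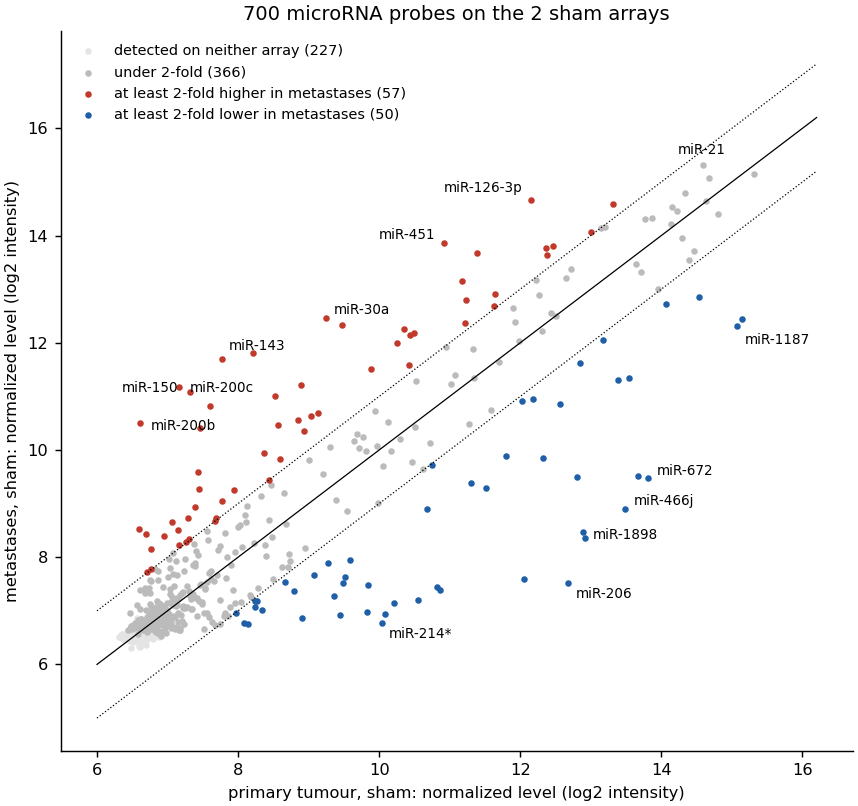
Normalized level (log2 intensity) of 700 microRNA probes on the primary tumour array (x axis) and the metastases array (y axis), sham radiation, 1 array per site. Each point is a probe, the solid line marks equal levels and the dotted lines 2-fold; 57 probes lie above and 50 below the dotted band, with miR-200c and miR-206 among the farthest.

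The epithelial miR-200 family was near background in the primary tumour and bright in the metastases. miR-200c measured 54.3 ± 14.2 units in the primary tumour and 3685 ± 105 units in the metastases, a log2 difference of 4.02 ± 0.12 (4.05 to 4.69 under the other 5 scalings). miR-200b measured 2.49 ± 15.3 units in the primary tumour, where it was not detected, and 2413 ± 124 units in the metastases. It was at least 13.6-fold higher there, the largest bound of any probe detected on 1 array. No spot of these 2 probes came near the other array's spots. The family's remaining members were dimmer: miR-429 went from 1.57 to 423 ± 53.7 units (at least 3.44-fold) and miR-200a from 7.36 to 393 ± 44.5 units (at least 3.23-fold). miR-141, the partner of miR-200c in its cluster, was not detected in the primary tumour, measured only 47.1 ± 3.39 units in metastases and stayed under 2-fold (0.49 ± 0.30). Of the 5 members, 4 thus passed 2-fold upward and none downward, with a median log2 difference of 1.93 ± 0.32 (1.78 with probes detected on 1 array at their bounds). The share of all tested probes at least 2-fold higher was 12.1%. On the primary tumour array, labelled as grown from a carcinoma line, miR-200c was the 1 member of this epithelial family that passed detection. In bulk tissue, fewer cells of a type and less RNA per cell cannot be told apart.

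Other epithelial microRNAs differed less. miR-203, a microRNA of stratified epithelium, measured 55.5 ± 11.4 and 334 ± 62.1 units (primary tumour and metastases), a log2 difference of 1.07 ± 0.17 that some scalings put under 2-fold (0.85 to 1.47). miR-205, known from basal epithelium, was not detected in the primary tumour and measured 33.0 ± 18.5 units in metastases. In the miR-183-96-182 cluster, miR-183 differed by -0.70 ± 0.09 and miR-182 by -0.60 ± 0.11, and miR-96 was detected on neither array. The sign for miR-182 depended on the scaling (-0.66 to 0.09). The microRNAs of multiciliated airway cells (the miR-34b, miR-34c and miR-449 probes) stayed dim, with summed levels of 94.4 and 527 units and 0 of 7 past 2-fold, although miR-34b-3p (0.73 to 1.06) and miR-34c* (0.79 to 1.12) passed it under some scalings.

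MicroRNAs of smooth muscle and fibroblasts were among the highest differences. miR-143 measured 145 ± 13.8 units in the primary tumour and 5209 ± 178 units in the metastases (3.92 ± 0.10). miR-145, transcribed with miR-143 from one precursor, measured 261 ± 14.3 and 5218 ± 163 units (3.60 ± 0.06). Both probes were detected on both arrays with no overlap of their spots, and both stayed at least 8-fold higher under each other scaling (3.20 to 3.91 for miR-145). miR-199a-3p, a product of the mesenchymal loci of miR-199a and miR-214, rose from 450.2 ± 83.2 to 3869 units (2.33 ± 0.17). Its neighbours miR-199a-5p (0.61 ± 0.14) and miR-214 (0.51 ± 0.09) stayed under 2-fold, whereas the passenger strand miR-214*, at 1022 ± 119.8 and 25.7 ± 11.0 units, was lower (-3.27 ± 0.29). miR-10a, a microRNA of the Hox clusters, rose from 92.7 ± 16 to 1295 ± 90.2 units (2.16 ± 0.13), whereas its relative miR-10b measured 719 ± 71.8 and 579 ± 85.2 units (-0.69 ± 0.15).

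The miR-30 family moved as a whole. miR-30a measured 590.0 units in the primary tumour and 8781 units in the metastases (3.21 ± 0.23), and its passenger strand miR-30a* went from 42.9 to 491 units (1.61 ± 0.10). miR-30e went from 97.3 ± 23.4 to 2246 ± 89.7 units (2.95 ± 0.13). The other 3 members gave log2 differences of 2.27 (miR-30b), 1.97 (miR-30c) and 1.92 (miR-30d). All 5 members were detected on both arrays and at least 2-fold higher, against 12.1% of all tested probes. The family's median was 2.27 ± 0.11 (1.90 to 2.48 under the other scalings), against 0.06 for all tested probes. No other seed shared by 3 or more tested probes had as many members past 2-fold.

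The miR-29 family, which targets collagen and other matrix messages, was at least 2-fold higher in all 3 members, against 12.1% of all tested probes. miR-29c measured 121 ± 52.5 units in the primary tumour and 3165 ± 556 units in metastases (3.22 ± 0.26). miR-29b gave 1.54 ± 0.21, and miR-29a, at 7356 and 16222 units, gave 1.26 ± 0.09. The size of the difference thus ran from 1.26 to 3.22 among targets that differ in a few bases outside the seed, and for miR-29a it fell under 2-fold under some scalings (0.74 to 1.14).

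The family of miR-15, miR-16 and miR-195, whose shared seed is AGCAGCA, restrains cyclins, and 4 of 6 detected probes of its list passed 2-fold upward. Among all tested probes 12.1% did so. miR-195 led with 644 ± 96.7 and 8188 ± 358 units (2.86 ± 0.16), followed by miR-322 (1.82 ± 0.15), miR-15a (1.55 ± 0.17) and miR-16 (1.41 ± 0.05). miR-15b, from the other locus of the pair, measured 7751 ± 439.9 and 9829.7 ± 239.7 units (0.12 ± 0.05), and its spots overlapped between the arrays. The passenger strands of miR-15a and miR-16 ran the other way, while miR-322* (0.45 ± 0.14) and miR-15b* (-0.04 ± 0.13) stayed under 2-fold. For miR-16 itself the scaling range reached under 2-fold (0.88 to 1.28). miR-16* measured 1072 ± 174 units in the primary tumour and 44.8 ± 9.33 units in metastases (-3.15 ± 0.24), and miR-15a* measured 644 ± 96.4 and 43.0 ± 11.6 units (-2.52 ± 0.13). Among 89 pairs of arms with both arms detected on at least 1 array, these were the only 2 in which the arms differed by at least 2-fold in opposite directions. The 2 passenger strands carry these targets, shown with bases 2 to 8 in capitals beside their partners.
miR-15a: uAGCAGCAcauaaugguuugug
miR-15a*: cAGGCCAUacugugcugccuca
miR-16: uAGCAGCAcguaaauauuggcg
miR-16*: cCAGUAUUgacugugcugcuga

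**Figure D2:**
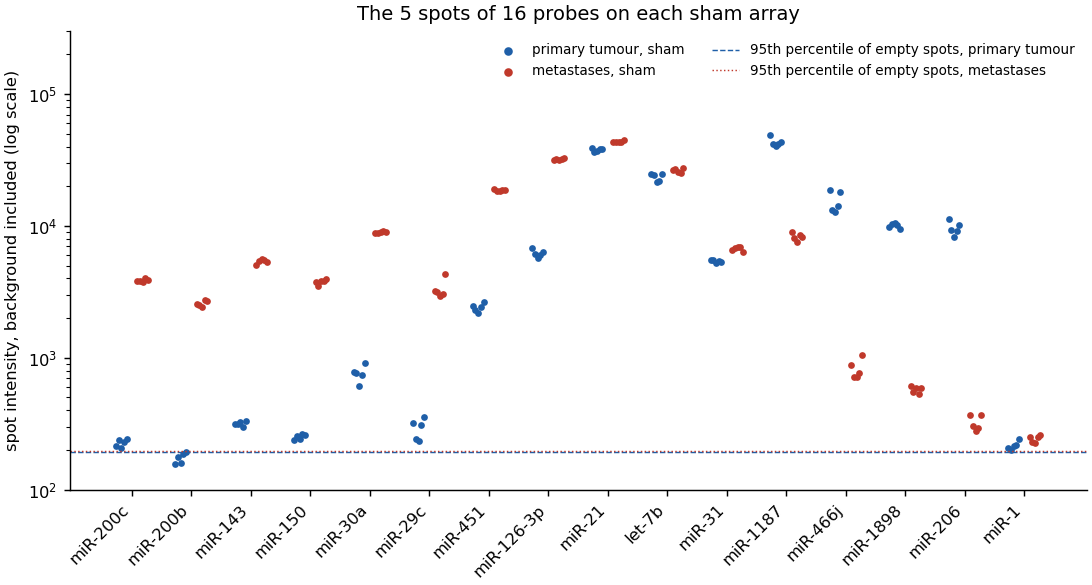
Intensity of each of the 5 spots, background included (log axis), for 16 probes on the primary tumour array (blue) and the metastases array (red), sham radiation. Dashed and dotted lines mark the 95th percentile of each array's empty spots; the primary tumour spots of miR-200b lie below that line, and those of miR-1 lie just above it on both arrays.

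The best known microRNAs of red cells, endothelium and mature lymphocytes were higher in the metastases, with 2 of 3, 1 of 2 and 1 of 4 detected members of their lists past 2-fold. Over all tested probes the share was 12.1%, and counts from lists this short are weak beside it. miR-451, the Dicer-independent microRNA of maturing red cells, measured 2239 ± 179.6 units in the primary tumour and 18489.7 ± 240.4 units in the metastases (2.95 ± 0.10). miR-486, also abundant in red cells, measured 463 ± 33.3 and 2224 ± 92.7 units (1.42 ± 0.04), and miR-144 was barely above background at 20.1 ± 8.28 units in metastases. miR-126-3p, which endothelial cells make from an intron of Egfl7, measured 6024 ± 408 and 32020.0 ± 379.7 units (2.52 ± 0.10). Its partner arm miR-126-5p was dim, at 6.69 ± 15.5 and 114 ± 66.7 units (0.65 ± 0.37). miR-150 of mature lymphocytes went from 79.4 ± 10.8 to 3591 ± 182 units (3.76 ± 0.11). The other lymphocyte or leukocyte microRNAs moved less: miR-155 gave 0.47 ± 0.06, miR-142-5p 0.79 ± 0.20 and miR-142-3p 0.24 ± 0.23. The myeloid miR-223 measured 6792 ± 999.6 and 7354 ± 781 units (-0.09 ± 0.29), with overlapping spots. miR-146a and miR-146b, both induced by NF-kB, gave 2.49 ± 0.05 and 1.74 ± 0.08. How much blood or host tissue each RNA held was not tested.

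No liver or neuronal microRNA of the lists passed 2-fold at the main setting. Of these, miR-122 was dim and miR-124 undetected on both sham arrays, whereas miR-192 and miR-194 lay above the median detected probe of the metastases array (101 units). The liver microRNA miR-122 measured 6.98 ± 11.7 and 53.8 ± 13.4 units, miR-192 52.9 ± 30.8 and 237 ± 39.9 units and miR-194 23.1 ± 17.3 and 158 ± 7.95 units, and none of the 3 reached 2-fold. For miR-192 and miR-194 this rests on the setting, since without normalization they gave 1.14 and 1.05, and with the median empty spot subtracted, a floor and quantile normalization 1.70 and 2.02. In the 10 Gy pair described further on, miR-122 was not detected in the primary tumour and was at least 4.91-fold higher in metastases. miR-124, the neuronal microRNA, was detected on neither array. The other members of the neural list, miR-9 (0.37 ± 0.22) and miR-128 (0.57 ± 0.17), were detected on both arrays and stayed under 2-fold. That list summed to 254 units in the primary tumour and 608 in metastases. Summed levels of all members were 83.0 and 449 units for the hepatocyte list, 409 and 10462 units for smooth muscle, 6031 and 32134 units for endothelium, and 2697 and 20734 units for red cells (primary tumour, metastases).

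**Figure D3:**
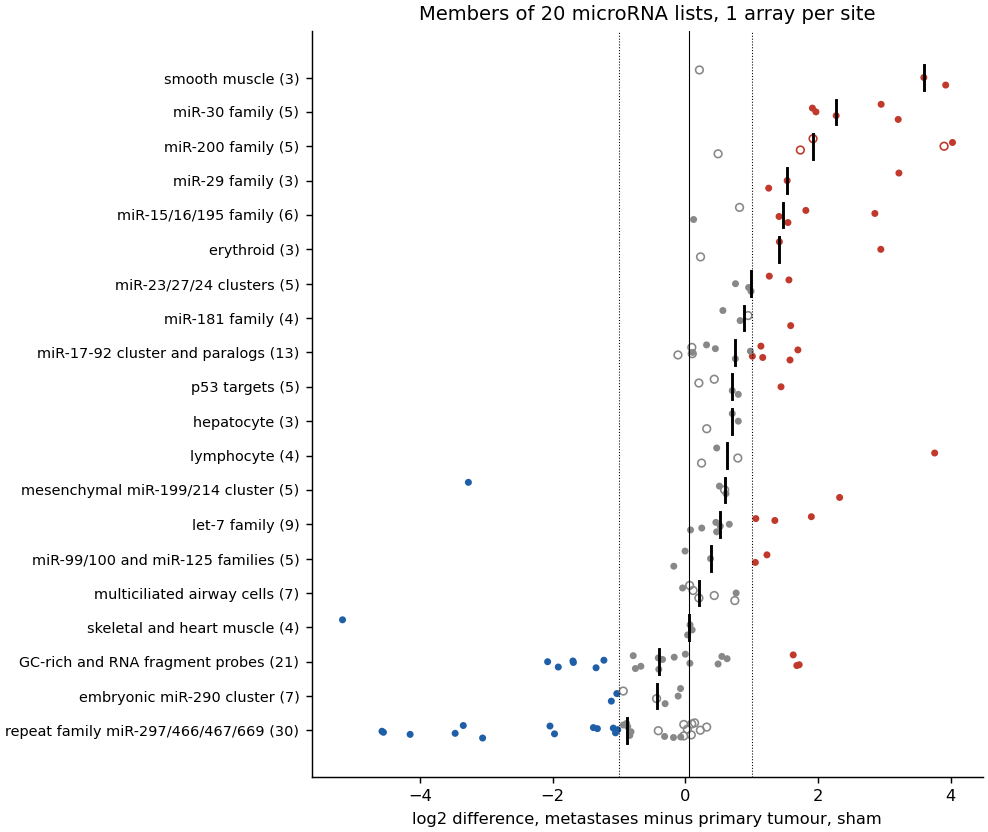
Log2 difference between metastases and primary tumour (sham) of the detected members of 20 microRNA lists with at least 3 detected members; filled points were detected on both arrays and open points on 1, red is at least 2-fold higher and blue at least 2-fold lower. Black bars mark list medians, dotted lines 2-fold and the solid line the median of 473 tested probes; the miR-30 family lies wholly to the right of 2-fold and the repeat family holds no member there.

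Muscle microRNAs gave the lowest difference of all, in 1 member only. miR-206 measured 9444 ± 1176 units in the primary tumour and 145 ± 42.0 units in the metastases, a log2 difference of -5.17 ± 0.11 (-6.10 to -5.42 under the other scalings). Its seed relative miR-1 measured 45.1 ± 15.9 and 65.4 ± 13.4 units, miR-133a 51.2 ± 10.4 and 84.7 ± 14.4 units, and miR-133b, a neighbour of miR-206 in Lincmd1, 45.2 ± 11.6 and 71.0 ± 9.88 units. The spots of these 3 overlapped between the arrays. The heart muscle microRNAs miR-208a, miR-208b and miR-499 were detected on neither. Thus 1 of 4 detected members was lower, against 10.6% of all tested probes, and the median of the list was 0.05 ± 0.04.

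The repeat-derived microRNAs of the miR-297, miR-466, miR-467 and miR-669 group, many of them from copies in an intron of Sfmbt2, held the next lowest differences. Of 48 such probes 30 were detected on at least 1 array. Of these, 13 were at least 2-fold lower and none was higher, with a median of -0.88 ± 0.11. Over all tested probes 10.6% were lower and 12.1% higher. miR-466j measured 15239.7 ± 2808 units in the primary tumour and 648 ± 144 units in metastases (-4.57 ± 0.11). miR-466h measured 10253 ± 2632 and 362 ± 82.2 units (-4.55 ± 0.24), and miR-466f 18627 ± 3468 and 1283 ± 227 units (-4.15 ± 0.19). In each of the 3 the lowest primary tumour spot lay above the highest metastases spot. Other members were near background on both arrays: miR-669o measured 16.7 ± 6.3 and 45.8 ± 8.28 units and miR-669a 13.6 ± 16.3 and 63.3 ± 19.6 units. Near-identical members of this group can share signal on an array, so values of single members are uncertain.

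Outside that group, 4 probes with GU-rich targets were also much lower. miR-672 measured 20328 ± 1931 and 1190.5 ± 194 units (-4.34 ± 0.09) and miR-468 5402 ± 1242 and 163 ± 50.9 units (-4.46 ± 0.25). miR-574-5p measured 44052 ± 4166 units in the primary tumour and 8387 ± 497 units in metastases (-2.71 ± 0.08), and miR-1187 42946 ± 3341 and 8127 ± 521 units (-2.77 ± 0.05). By brightness miR-574-5p and miR-1187 stood at ranks 2 and 3 of 700 on the primary tumour array and at ranks 42 and 46 on the metastases array.

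What many of the lower probes shared was a stretch of the target. The 5 letters GUGUG, searched on the target strand and chosen after the values were seen, stood in 43 of the 700 targets (6.14%) and in 31 of the 473 tested (6.55%). They stood in 13 of the 50 lower probes (26.0%) and in none of the 57 higher. The 13 are miR-206, miR-468, miR-466j, miR-467h, miR-466h, miR-466f-5p, miR-466f, miR-297a, miR-669d, miR-669e, miR-672, miR-574-5p and miR-1187. Those from miR-466j to miR-669e in this order are also among the 13 lower repeat-derived probes above, so these counts overlap. The median log2 difference of the 13 with GUGUG was -3.47, against -1.69 for the other 37 lower probes. The match is not uniform: 18 of the 31 tested holders stayed under 2-fold, with differences from -0.99 to 0.32. let-7b is the bright exception, at 23380.3 ± 1529 and 26290.1 ± 938 units (0.08 ± 0.05). It held most of the summed signal of these 18, which was 24851 units in the primary tumour and 27283 in metastases. Most of the others were dim, the median of the 18 being 48.4 and 38.9 units, where the offset of 50 shrinks differences. Probes with the stretch took 17.8% of the summed signal of all microRNA probes on the primary tumour array and 4.26% on the metastases array.

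These 13 probes, chosen as lower in sham metastases than in the sham primary tumour, were also compared over the 4 arrays. Their summed level was 172336 units there and 20644 in sham metastases. With 10 Gy it was 31315 units in the primary tumour and 30552 in metastases. For each probe the choice sets the primary sham array above the metastases sham array, so only the order against the 10 Gy arrays is free. After normalization all 13 had their highest level on the primary sham array, 11 of them at least 2-fold above each of the other 3 arrays. All 13 had their lowest on the metastases sham array. The other 37 lower probes did likewise in part: 34 were highest on the primary sham array, 21 of them at least 2-fold above each other array, and 16 were lowest in sham metastases. Their summed levels were 184707 and 61812 units in the sham pair and 52483 and 26423 units in the 10 Gy pair. miR-206, for instance, measured 1478 ± 284 units in the 10 Gy primary tumour and 2358 ± 379 units in the 10 Gy metastases. With 1 array per group, chip, RNA and tissue cannot be told apart in these values.

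**Figure D4:**
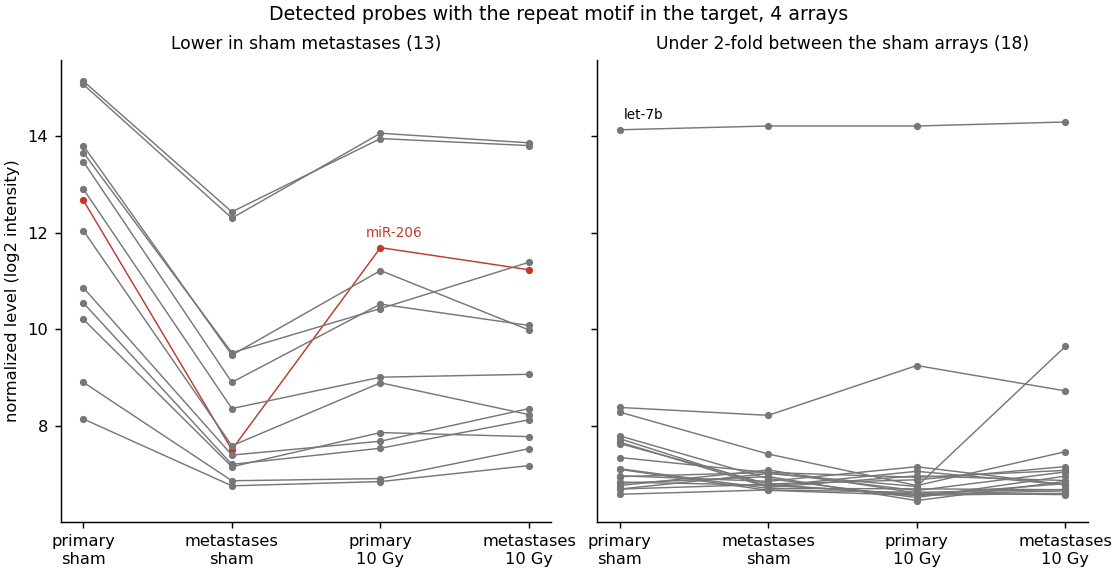
Normalized level (log2 intensity) on the 4 arrays of the 31 tested probes whose target holds the repeat motif named in the text. Left, the 13 probes chosen as at least 2-fold lower in sham metastases than on the primary sham array, where each was highest, with miR-206 in red. Right, the 18 probes under 2-fold, with let-7b at the top. The choice fixes the order of the sham arrays at the left. Lines join 1 probe's values and show no time order.

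Without this stretch, 37 lower probes remained, and many have GC-rich targets or are not among RefSeq's mature sequences. miR-1898, from within the span of Zfr, measured 9916 ± 446 units in the primary tumour and 397 ± 31.5 units in metastases (-4.43 ± 0.13). miR-1306, from within the span of Dgcr8, measured 2105 ± 383 and 132 ± 25.6 units (-3.37 ± 0.22). miR-2140 measured 9740.0 ± 496 and 1190.4 ± 50 units (-3.31 ± 0.11) and miR-877* 918 ± 75.5 and 48.5 ± 5.04 units (-2.85 ± 0.12). Of the 50 lower probes, 24 (48.0%) had no match among mature RefSeq sequences, against 11 of the 57 higher (19.3%) and 22.6% of those tested. Passenger strands, marked with a star in these older names, were 8 of the lower, 2 of the higher and 70 of the tested probes. The median GC content of the target was 51.3% in the lower, 45.5% in the higher and 50% in the tested probes, and targets over 60% GC made up 26% of the lower, 8.77% of the higher and 19.7% of the tested probes. All 13 such lower probes were among the 37 without GUGUG.

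Of a list of 21 probes that are GC-rich or overlap fragments of other RNAs, 3 were at least 2-fold higher, 6 lower and 12 neither. Over all tested probes 12.1% were higher and 10.6% lower, so a split in both directions is not particular to this list. miR-2134 (-1.69 ± 0.01), miR-2145 (-2.08 ± 0.05), miR-2146, miR-1894-3p, miR-1895 and miR-671-5p were at least 2-fold lower. miR-720 (1.63 ± 0.16), miR-1937a (1.68 ± 0.09) and miR-1937b (1.72 ± 0.10), whose sequences are known to overlap transfer RNAs, were at least 2-fold higher. miR-709, the brightest probe of the primary tumour array, measured 50098 ± 2051 and 37567 ± 520.0 units (-0.17 ± 0.06).

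Of 14 probes of the miR-290 cluster, a mark of embryonic stem cells, 7 were detected, of which 2 were lower and none higher. The share of lower probes over all tested was 10.6%. miR-290-5p measured 12957 ± 560.4 and 6533 ± 352 units (-1.12 ± 0.03) and miR-292-5p 1836 ± 181 and 1411 ± 117 units (-1.03 ± 0.11). For both, some scalings gave less than 2-fold (-1.48 to -0.98 and -1.05 to -0.37).

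miR-21, the microRNA in the title of the study, did not differ by 2-fold between the sites. It measured 37657 ± 1191 units in the primary tumour and 43660.5 ± 461 units in the metastases, where it was the brightest of the 700 probes. Its log2 difference was 0.72 ± 0.04 after quantile normalization, with no overlap of spots, and ran from -0.12 to 0.44 under the other scalings, so its direction was not settled. The passenger strand miR-21* was near background at 60.6 ± 13.7 and 33.1 ± 26.8 units (-0.39 ± 0.19). Other microRNAs known from breast carcinoma cells were close to even: miR-31, a suppressor of metastasis in breast cancer models, gave 0.04 ± 0.06, miR-221 0.22 ± 0.14, miR-222 0.31 ± 0.06, miR-125b-5p 0.38 ± 0.12 and the hypoxia-induced miR-210 -0.16 ± 0.14.

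The growth-linked families lay between these extremes. For their counts, the share of all 473 tested probes at least 2-fold higher was 12.1%. In the let-7 family, which restrains Ras, Myc and Lin28, 3 of 9 detected probes passed 2-fold upward, namely miR-98 (1.90 ± 0.05), let-7g (1.35 ± 0.12) and let-7i (1.06 ± 0.06). Under other scalings let-7i fell below 2-fold in each (0.59 to 0.92) and let-7g in some (0.78 to 1.19). The other let-7 members gave 0.08 to 0.66. Their direction was not settled for let-7a, let-7b and let-7c, for which at least 1 scaling gave a negative value. The miR-17-92 cluster with its paralogs drives cell proliferation, and 5 of 13 of its detected probes passed 2-fold upward, led by miR-20b (1.70 ± 0.28) and miR-106a (1.58 ± 0.07). The others past 2-fold were miR-17 (1.17 ± 0.05), miR-92a (1.14 ± 0.08) and miR-18a (1.01 ± 0.10), whereas miR-19b of the same cluster gave 0.11 ± 0.09. For miR-18a some scalings gave less than 2-fold (0.74 to 1.35). None of the 13 was lower by 2-fold.

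In further families, 1 or 2 members passed 2-fold in the same direction and none in the other. With 12.1% of all tested probes 2-fold higher, counts from so few members do not set these families apart. miR-27a (1.56 ± 0.19) and miR-27b (1.27 ± 0.12) were the ones among the 5 probes of the miR-23/27/24 clusters, miR-181a (1.59 ± 0.08) among 4 of the miR-181 family, miR-99a (1.23 ± 0.15) and miR-125a-5p (1.06 ± 0.08) among 5 of the miR-99/100 and miR-125 families, and miR-26a (1.29 ± 0.07) of 2 in the miR-26 family. miR-125a-5p (0.82 to 1.31) and miR-26a (0.85 to 1.26) fell under 2-fold under some scalings. Of the microRNAs induced by p53, miR-34a went from 31.8 ± 13.3 to 373 ± 45.6 units (1.44 ± 0.18), and the 4 others detected stayed under 2-fold, miR-192 and miR-194 among them with the dependence given above. Among probes detected on 1 array only, miR-101a was 2.6-fold higher in metastases and miR-1939 2.03-fold, both point differences and not minima. The largest such value for a probe detected only in the primary tumour was 1.91-fold, for miR-294, likewise a point difference.

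The same site comparison after 10 Gy to the primary tumour uses the other 2 arrays and was set beside it. In that pair 44 of 344 tested probes were at least 2-fold higher in metastases (12.8%) and 38 lower (11.0%). Of the 57 probes higher without radiation, 33 (57.9%) were also higher in the 10 Gy pair, which is 75% of that pair's list. Of the 50 lower, 15 (30.0%) were also lower, which is 39.5% of that pair's list. No probe differed by 2-fold in opposite directions. Across the 325 probes tested in both pairs the log2 differences correlated with Pearson's r = 0.60 and Spearman's rho = 0.60. Over the 302 whose targets hold no GUGUG, r was 0.72. GUGUG was chosen after the values were seen, and its 13 lower probes had medians of -3.47 (sham) and -0.08 (10 Gy). Leaving its holders out raises r through that choice, so the rise does not show how alike the pairs are. Probes are not independent replicates, and the 4 arrays were normalized together.

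Members of the families that led the higher probes were past 2-fold in the 10 Gy pair too. There miR-30a gave a log2 difference of 3.04 ± 0.13, miR-451 3.26 ± 0.14 and miR-143 2.34 ± 0.24. The primary 10 Gy array did not detect miR-200c, miR-200b or miR-29c, which were at least 15.5-fold, 6.15-fold and 5.06-fold higher in metastases. Nor did it detect miR-150 or miR-30e, which were higher in metastases by point differences of 5.62-fold and 4.32-fold. All 5 miR-30 members were again at least 2-fold higher. Among the lower probes, miR-2140 gave -2.73 ± 0.11 and miR-346 -2.90 ± 0.24. miR-1898, not detected on the metastases 10 Gy array, was 46.2-fold lower there, a point difference and not a minimum. Of the 13 lower probes with GUGUG, only miR-672 was again 2-fold lower (-1.23 ± 0.21), and miR-206 gave -0.46 ± 0.22. The sign for miR-206 rests on the normalization, since its level in units, given above, was higher in the 10 Gy metastases. Differences of the 10 Gy pair are given after quantile normalization only. Some probes near even without radiation differed in the 10 Gy pair, among them miR-223 (2.53 ± 0.28), miR-711 (3.19 ± 0.14) and miR-1 (1.65 ± 0.20). miR-203, not detected on the primary 10 Gy array, was at least 18.8-fold higher in those metastases. The difference between the 2 pairs was not tested, with 1 array in each of the 4 groups.

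**Figure D5:**
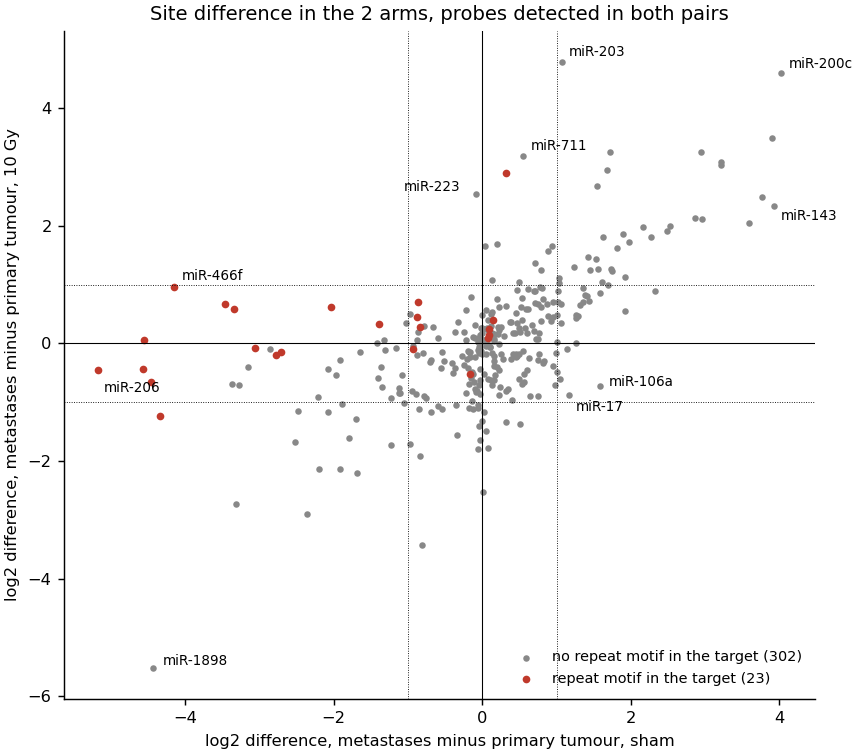
Log2 difference between metastases and primary tumour in the sham pair (x axis) and in the 10 Gy pair (y axis) for 325 probes tested in both; dotted lines mark 2-fold. Red points are the 23 probes whose target holds the repeat motif. The red points past 2-fold at the left lie between miR-672 at -1.23 and miR-466f at 0.96 on the y axis.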

How the data were processed

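MicroRNA levels were measured on 4 one-colour chips, 1 per group, per the labels' protocols from 2 µg of total RNA with a poly(A) tail and Cy3 staining. Per the file headers, the deposited scanner tables give a linear mean intensity for every spot, with background still included. The software of the scanner was not given in the sources used here. Commas between groups of digits were removed. The authors' value table, a background-subtracted intensity per probe that correlated with the scanner means at r of at least 0.99996 on each array, has an unstated choice of background. Its column medians are 179, 213, 129.6 and 55.9 units (sham primary tumour, sham metastases, 10 Gy primary tumour, 10 Gy metastases). It served as an alternative only.

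For background correction normexp (limma 3.58.1, R 4.3.3) was fitted on all spots of an array, with an offset of 50, which shrinks differences of dim probes. The log2 values of a probe's 5 spots were averaged and the 4 arrays quantile normalized over 700 probes. A probe detected on 1 array has a bound: its bright value minus the higher of its own dim value and the lowest value detected on the dim array. Where its own dim value is the higher, the bound is the point difference and not a minimum. The other 5 scalings were no normalization, quantile over the 2 sham arrays, cyclic loess, the 75th percentile and the 5S ribosomal RNA probes. The steps were tested on simulated data.

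The members of the comparison follow from the labels. The 33 lists of microRNAs and the rule for named probes were chosen with earlier results of these data known. The rule names the 12 highest and 12 lowest differences detected on both arrays with separate spots, the 8 largest bounds in each direction, the 10 brightest probes per array, miR-21 and miR-21*, all list members, and probes past 2-fold in opposite directions in the 2 pairs. Other names, such as miR-346, were chosen after their values were seen. Targets were matched to mature RefSeq sequences of GRCm38.p6 (544 of 700). Chromosomes of miR-30b, miR-30d, miR-150 and several repeat-derived microRNAs came from gene symbols alone. 1 target sequence is not reported here. Summaries and figures were made with Python 3.11.15, numpy 2.4.6, pandas 2.3.3 and matplotlib 3.10.9.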

Additional observations from a re-analysis of the deposited data

Results flagged for a closer look

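For 7 microRNAs the site difference was at least 2-fold without radiation and had the opposite sign after 10 Gy with a size of at least 0.5 (log2) and more than 2 spot SDs. Opposite signs under that size are not listed. The difference between the pairs was not tested. miR-106a gave 1.58 in the sham pair and -0.72 ± 0.19 in the 10 Gy pair, miR-17 gave 1.17 and -0.88 ± 0.07, and miR-351, which lies near miR-322, gave 1.04 and -0.62 ± 0.16. The 10 Gy values are after quantile normalization over 4 arrays, and other scalings are not given for that pair. Before normalization the miR-17-92 list with its paralogs summed to 11853 units in the 10 Gy primary tumour and 19256 in the 10 Gy metastases. The signs of its members there thus rest on the scaling. The repeat-derived miR-466f gave -4.15 and 0.96 ± 0.06, miR-466f-5p -3.47 and 0.68 ± 0.21, miR-669d -2.04 and 0.62 ± 0.17, and miR-669e -3.35 and 0.59 ± 0.15. miR-669d and miR-669e were not detected on the primary 10 Gy array. miR-669d was at least 1.13-fold higher in the 10 Gy metastases, and the 1.5-fold of miR-669e is a point difference.

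Signal also appeared on control probes that no comparison used. Ctr09-3M10 measured 234 units over the median empty spot in the primary tumour and 8952 in metastases, and Ctr09-3M05 measured 17 and 857 units. Ctr05-3M10 ran the other way, with 1151 and 712 units. On the 10 Gy arrays Ctr09-3M10 measured 67.1 and 1045 units, Ctr09-3M05 19.6 and 63.4 units, and Ctr05-3M10 65.0 and 61.1 units (primary tumour, metastases). The targets of these probes are not described here.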

How the results depend on the processing

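No difference of a named probe past 2-fold changed sign under any of the 12 alternatives that gave it a value. Of the 78 such probes, 65 to 78 stayed past 2-fold under the alternatives that covered all of them, fewest without background correction, and 66 of 70 by the authors' value table. Among the named probes under 2-fold, scaling to the 75th percentile changed the sign of 26, and it lowered the median of all tested probes to -0.24. The count of higher probes rose from 57 to 88 without normalization, to 94 with the median empty spot subtracted and a floor before quantile normalization, to 141 with that floor and no normalization, and to 98 of the 299 probes listed in both columns of the authors' value table. The count of lower probes rose from 50 to 83 with the floor and quantile normalization and lay between 39 and 74 elsewhere. The subtraction keeps dim differences that the offset of 50 shrinks. Lower probes outnumbered higher under cyclic loess (53 higher, 74 lower) and under scaling to the 75th percentile (58 and 70), and were equal in number with the sham arrays normalized alone (66 and 66). In 2 alternatives chosen after seeing the data, leaving out targets with GUGUG and normalizing anew gave 42 higher and 50 lower of 442, and taking the bound where 1 array detected a probe gave 56 and 50. Detection depended on the cutoff: a mean of at least 2 times the median empty spot left 172 probes on the primary tumour array and 185 on the metastases array, and 3 spots above the highest empty spot left 290 and 206, the highest empty spot of the metastases array lying at 308 units. The excess of detected probes in metastases thus turned with that cutoff. No paired analysis was possible because each group has 1 array. No spread between animals or chips could be measured.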

Other observations

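The 5 probes for 5S ribosomal RNA, present on every chip, did not move together between the sham arrays. mmu-5S-b1 measured 9865 units above the empty spots in the primary tumour and 21254 in metastases, mmu-5S-b4 measured 26096 and 20195 units, and mmu-5S-b5 51812 and 48365 units. The empty spots of the primary tumour array rose along the rows of the chip (r = 0.60 over 180 spots), a smaller trend being present on the metastases array (r = 0.17). Subtracting these trends gave 58 higher and 51 lower probes.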
